A study of Neurospora crassa with 84 samples.

Results

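In this comparison, the ∆ve-1 strain of Neurospora crassa, in which the gene of the velvet protein VE-1 is deleted, was set against the wild type 4 days after fertilization in a cross kept in the dark. It takes in the libraries whose labels give day 4 and darkness, 6 of the 84 in the study, with 3 libraries of each strain. Both strains had the OR74A background and mating type A and served as the female. They were grown on nitrogen-poor crossing agar, fertilized with conidia of a wild-type strain of mating type a, and their surface tissue was scraped off and sequenced as poly-A RNA. The partner was wild type in both crosses, so the deletion came from the female alone. Tissue of biological replicates had been pooled before RNA extraction, so the p-values below measure only the spread between these libraries, which may be partly technical.

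VE-1 is the N. crassa member of the velvet family, fungal regulators of transcription that join development to secondary metabolism. In Aspergillus, the related protein VeA moves into the nucleus mainly in the dark, where it forms a complex with another velvet protein and the methyltransferase LaeA, and it favours fruiting bodies over asexual spores. In N. crassa, nitrogen shortage makes the female form protoperithecia, which attract and fuse with a male cell through pheromones and their receptors and then grow into dark, melanized perithecia in which meiosis takes place and ascospores form.

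The 6 libraries held 15712184 to 17885157 counts, and 9701 of the 10590 genes passed the filter on low counts. Values are CPM, the counts of a gene per 1000000 counts of a library, after TMM scaling. A gene was called when edgeR's quasi-likelihood test gave a Benjamini-Hochberg adjusted p under 0.05 and an absolute log2 change above 1, with every log2 change given as ∆ve-1 relative to wild type. ve-1 itself (NCU01731, II:2607929-2611456, assembly NC12) had 9.29, 10.3 and 15.7 CPM in the ∆ve-1 libraries and 350.5, 362 and 413 CPM in the wild type (log2 change -4.995, SE 0.258, edgeR adjusted p = 1.66e-23). The groups did not overlap, although counts of the deleted gene did not reach 0. One gene weighed on the composition of the ∆ve-1 libraries: the pheromone precursor gene ccg-4 took 8.68%, 8.01% and 13.9% of their counts and 0.426% to 0.552% in the wild type, and the 10 most abundant genes took 14.8% to 19.7% against 7.90% to 11.2%. In bulk tissue such as this, fewer cells of a kind and less RNA per cell cannot be told apart.

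On dark day 4, 1500 genes were called, 15.5% of those tested, of which 926 were higher (9.55%) and 574 lower (5.92%) in ∆ve-1. The median log2 change of all tested genes was -0.03. By the adjusted p alone, 3533 genes passed (36.4%). Libraries of the groups did not overlap in 5689 genes (58.6%), and in 1485 of the 1500 called (99%). The genes with the greatest losses included starch-degrading enzymes, and those with the greatest gains were mostly genes annotated as hypothetical proteins. The most abundant gained transcript was ccg-4.

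**Figure D1:**
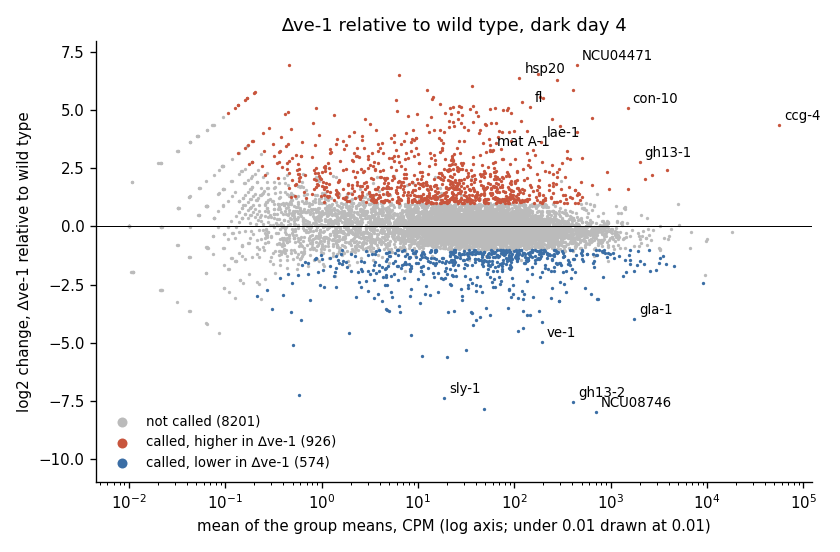
Log2 change of ∆ve-1 relative to wild type on dark day 4 (vertical axis) against the mean of the group means in CPM (horizontal log axis) for the 9701 genes tested, with called genes in colour. The 926 higher genes (red) and 574 lower genes (blue) spread over a wide range of levels, and the diagonal streaks at the left are genes of very few counts whose fitted change depends on the prior count.

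Of the 3 velvet family and LaeA-like genes listed, 1 was called higher and 2 lower, the deleted ve-1 among the latter, beside 9.55% of all genes called higher and 5.92% lower. ve-2 was not in the list. lae-1 (NCU00646, I:7714560-7717622), the LaeA-like methyltransferase, had 403, 391 and 269 CPM in ∆ve-1 and 27.0, 29.5 and 28.5 CPM in the wild type. That is 12.5 times the wild-type mean (log2 change 3.64, SE 0.428, edgeR adjusted p = 7.52e-10), with every ∆ve-1 library above every wild-type one. NCU05964, annotated as the developmental regulator VosA, a velvet protein of spores in Aspergillus, went the other way. Its level was 7.96, 7.55 and 8.44 CPM in ∆ve-1 and 34.2, 25.5 and 31.3 CPM in the wild type, again without overlap (log2 change -1.92, SE 0.298, edgeR adjusted p = 6.11e-07).

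Pheromone, receptor and mating-type genes were the group in which ∆ve-1 stood highest, with a median log2 change of 1.67. Of these genes 5 of 7 rose and none fell, beside 9.55% and 5.92% of all genes. ccg-4 (NCU02500), which encodes the peptide pheromone of mating type A cells, reached 89498, 83714 and 149259 CPM in ∆ve-1 against 6232, 5154 and 4439 CPM in the wild type, a 20.4-fold difference of the means (log2 change 4.35, SE 1.11, edgeR adjusted p = 0.00145). Its lowest ∆ve-1 library was far above the highest wild-type library. mat A-1, the mating-type gene that gives cells their A identity, had 95.2, 92.4 and 129.9 CPM in ∆ve-1 and 13.1, 11.8 and 8.43 CPM in the wild type (log2 change 3.25, SE 0.533, edgeR adjusted p = 2.04e-06). The weaker genes beside it in the locus, mat A-2 and mat A-3, which act after fertilization, rose by 2.04 (edgeR adjusted p = 0.00333) and 1.67 (0.000911) on the log2 scale. pre-1, the receptor through which A cells sense the partner's pheromone, was at 13.5, 10.6 and 16.2 CPM against 5.91, 4.48 and 5.98 CPM (log2 change 1.30, SE 0.379, edgeR adjusted p = 0.00513).

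The genes of the partner's side did not follow. mfa-1, the pheromone of mating type a cells, had 656, 1092 and 1199.7 CPM in ∆ve-1 and 1465, 1012 and 673 CPM in the wild type, ranges that overlap (log2 change -0.10, SE 0.396, edgeR adjusted p = 0.874). pre-2, the receptor used by a cells, was at 3.70, 4.04 and 4.03 CPM in ∆ve-1 and 4.88, 4.48 and 3.78 CPM in the wild type (log2 change -0.16, SE 0.246, edgeR adjusted p = 0.647). Summed, these markers of the male partner lay at 660 to 1204 CPM in ∆ve-1 and 677 to 1470 CPM in the wild type, so the groups overlapped. The A-type markers other than ccg-4 summed to 116 to 161 CPM against 18.6 to 22.7 CPM, without overlap.

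**Figure D2:**
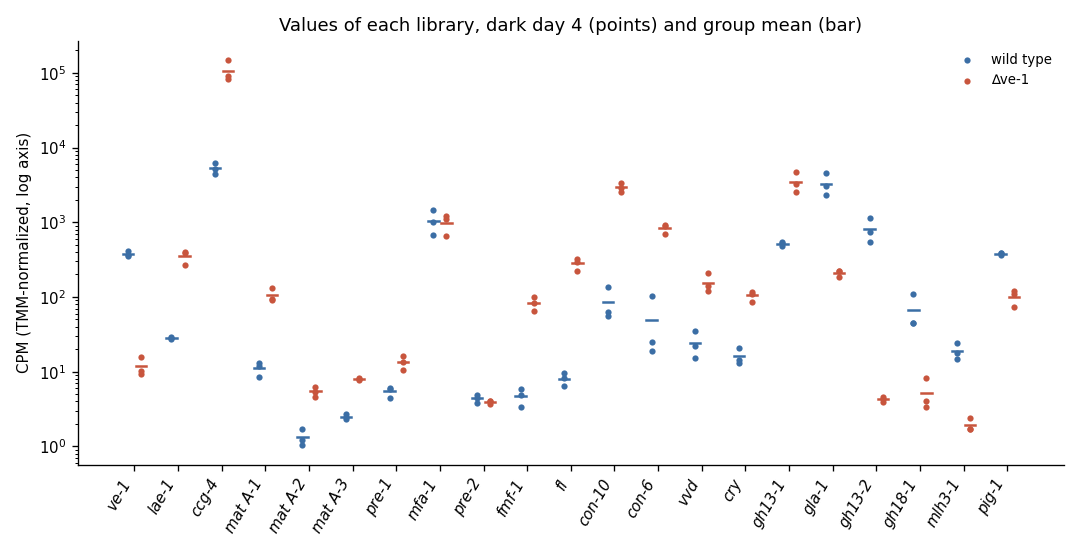
CPM of each dark day 4 library (points, log axis) and the group mean (bars) for genes of the velvet, mating, spore, light, starch, chitin, meiosis and melanin groups, wild type in blue and ∆ve-1 in red. ccg-4 lies at 89498, 83714 and 149259 CPM in ∆ve-1 and 6232, 5154 and 4439 CPM in the wild type, whereas mfa-1 and pre-2 overlap between the strains.

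Among 16 genes of female and perithecial development, 2 were called higher and 2 lower, beside 9.55% and 5.92% of all genes. Their median log2 change was -0.57. fmf-1, an HMG-box factor needed for fertility of both the female and the male, had 84.3, 64.6 and 101 CPM in ∆ve-1 and 5.84, 4.92 and 3.32 CPM in the wild type (log2 change 4.14, SE 0.862, edgeR adjusted p = 0.000114). asl-1, named for a lethal ascospore phenotype, was at 267, 278 and 275 CPM in ∆ve-1 and 130.0, 122 and 126 CPM in the wild type (log2 change 1.12). The called losses were small. The tetraspanin gene pls-1 had 101, 133 and 118 CPM in ∆ve-1 and 229, 253 and 257 CPM in the wild type (log2 change -1.07, SE 0.201, edgeR adjusted p = 2.15e-05). bek-1, a homeobox gene named for the perithecial beak, had 3.16, 4.49 and 4.55 CPM in ∆ve-1 and 7.77, 7.38 and 9.56 CPM in the wild type (log2 change -1.02, SE 0.284, edgeR adjusted p = 0.00352). Without ∆ve-1 replicate 1, pls-1 stood at -0.98 and bek-1 at -0.86, and bek-1 at -0.90 without wild type replicate 3, all short of the fold required. bek-1 was also short of it with the 6 libraries alone (-0.97), DESeq2 (-0.99), no filter on low counts (-0.999) and library totals (-0.96). Of members that did not pass the call, fsd-1, a regulator of female development, had 1517, 1999 and 1794 CPM in ∆ve-1 and 3231, 2933 and 2957 CPM in the wild type, a change under the fold required (log2 change -0.78, SE 0.205, edgeR adjusted p = 0.00194).

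Perithecial pigment genes leaned downward, with 4 of 10 lower and none higher, beside 5.92% and 9.55% of all genes. Their median log2 change was -0.92. pig-1 had 74.5, 110.0 and 119 CPM in ∆ve-1 and 390.0, 367 and 385 CPM in the wild type (log2 change -1.91, SE 0.419, edgeR adjusted p = 0.000238), and the groups were well apart. pig-2, which resembles the Aspergillus pigment protein Ayg1, fell by 1.21, and the tyrosinase gene ty-2 by 1.61. per-1, the polyketide synthase that begins perithecial melanin, was at 1281, 1833 and 2408 CPM in ∆ve-1 and 5982, 5239 and 5899.6 CPM in the wild type. Its libraries did not overlap, but its call was at the threshold (log2 change -1.63, SE 0.672, edgeR adjusted p = 0.0497) and was lost when any of the 6 libraries was left out, with edgeR adjusted p from 0.0664 without ∆ve-1 replicate 3 to 0.156 without ∆ve-1 replicate 1. Of the 6 perithecium markers (per-1, fsd-1, sub-1, asd-1, asd-3 and poi-2), per-1 alone was called lower and none higher. They summed to 10885 to 11743 CPM in ∆ve-1 and 13688 to 25346 CPM in the wild type, mostly from the abundant poi-2, per-1 and fsd-1. These sums did not overlap, but that rests on per-1, itself a pigment gene, so the sum is not separate from the pigment values. The part of perithecial cells in these pigment values was not tested.

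Asexual spore genes were among the largest gains, although the group was mixed: 6 of 14 rose and 3 fell, beside 9.55% and 5.92% of all genes. fl (NCU08726), the zinc finger factor that starts conidiophore growth, had 226, 296 and 327 CPM in ∆ve-1 and 6.42, 9.46 and 8.23 CPM in the wild type (log2 change 5.14, SE 0.592, edgeR adjusted p = 4.70e-10). con-10, a gene of conidiating cultures, had 2543, 2913 and 3312 CPM in ∆ve-1 and 62.0, 138 and 55.6 CPM in the wild type, 34.3 times the wild-type mean (log2 change 5.10, SE 0.868, edgeR adjusted p = 4.16e-06). Neither gene's groups overlapped, as in 99% of all called genes. con-6 (4.08), con-8 (2.41) and csp-1, a factor of spore separation (2.14), also rose on the log2 scale. eas, the hydrophobin that coats conidia with rodlets, was at 4018, 5221 and 4043 CPM in ∆ve-1 and 658, 1247 and 981 CPM in the wild type (log2 change 2.20, edgeR adjusted p = 0.0270), a call lost without ∆ve-1 replicate 2 (0.0614), wild type replicate 1 (0.101) or wild type replicate 3 (0.0690).

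The fallen members of that group were con-13, at 5.59, 8.92 and 14.9 CPM in ∆ve-1 against 65.1, 62.3 and 42.2 CPM (log2 change -2.53, SE 0.710, edgeR adjusted p = 0.00369), the conidial glucanase gene cgl-1 (-1.59) and ecd-1 (-1.11). con-13 lies beside con-10 on chromosome IV, and these neighbours moved in opposite directions. Summed, the asexual markers were at 12747 to 17398 CPM in ∆ve-1 and 2714 to 3454 CPM in the wild type. In ∆ve-1 the sum came mostly from con-8, eas and con-10, with means of 6397, 4428 and 2922.5 CPM. Of the 11 markers 6 were called higher and 3 lower, beside 9.55% and 5.92% of all genes, so the sum does not stand for each of them. The part of asexual cells in the differences between the strains was not tested.

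Genes of light sensing and the clock rose in the dark without exception among those called, 5 of 11, beside 9.55% of all genes. Their median log2 change was 0.84. vvd, a small blue-light receptor that damps light responses, was at 119.6, 139 and 207 CPM in ∆ve-1 and 22.0, 34.7 and 15.1 CPM in the wild type (edgeR adjusted p = 1.87e-05), or 6.49 times the wild-type mean. cry, a cryptochrome, had 86.7, 110.2 and 118 CPM against 14.4, 20.4 and 13.1 CPM (log2 change 2.71, SE 0.487, edgeR adjusted p = 1.05e-05), and wc-1, the main blue-light receptor, 115, 147 and 219 CPM in ∆ve-1 against 45.1, 42.3 and 44.2 CPM in the wild type (log2 change 1.87, SE 0.275, edgeR adjusted p = 2.20e-07). None of these 3 overlapped between strains, as in 99% of all called genes. The carotenoid genes al-1 (1.90) and cao-2 (1.04) also rose on the log2 scale. al-1 was not called without ∆ve-1 replicate 3 (edgeR adjusted p = 0.0883), wild type replicate 1 (0.0870) or wild type replicate 3 (0.0612). cao-2 stood just under the fold required without wild type replicate 1. Leaving out that library brought the list to 3 calls.

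Of 15 genes of the MAP kinase cascades, 1 fell and none rose, beside 5.92% and 9.55% of all genes, with a median log2 change of -0.26. The member that fell was ham-5, the scaffold of the MAK-2 pathway, with 94.1, 97.8 and 110.5 CPM in ∆ve-1 and 192, 201 and 216 CPM in the wild type (log2 change -1.01, SE 0.195, edgeR adjusted p = 3.67e-05). Its change was within the fold required without ∆ve-1 replicate 1 (-0.96), ∆ve-1 replicate 2 (-0.99) or wild type replicate 3 (-0.96), and likewise with the 6 libraries alone (-0.96), with DESeq2 (-0.98), without a filter on low counts (-0.99) and with library totals as the scale (-0.95). The kinase genes mak-1, at 203, 184 and 185 CPM in ∆ve-1 and 271, 279 and 267 CPM in the wild type (log2 change -0.51, SE 0.153, edgeR adjusted p = 0.00646), and mak-2, at 483, 416 and 357 CPM in ∆ve-1 and 450.4, 469 and 435 CPM in the wild type (log2 change -0.11, SE 0.189, edgeR adjusted p = 0.685), did not reach the fold required.

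Among 15 cell fusion genes 5 fell and none rose, beside 5.92% and 9.55% of all genes, with a median of -0.47. ham-8, needed for fusion of germinating spores, had 273, 259.9 and 304 CPM in ∆ve-1 and 730.4, 723 and 769 CPM in the wild type (log2 change -1.41, SE 0.230, edgeR adjusted p = 1.75e-06). ham-6 (-1.16), ham-7, a surface protein of the cell wall integrity pathway (-1.12), ham-11 (-1.13) and ham-12 (-1.11) fell by similar amounts on the log2 scale. No library of any of the 5 overlapped with the other strain, as in 99% of all called genes. No G protein subunit gene among 5 was called, and none of 7 nitrogen genes, beside 15.5% of all genes called either way.

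Of 12 meiosis genes 1 fell and 11 were not called, beside 5.92% of all genes called lower. Leaving out ∆ve-1 replicate 2, ∆ve-1 replicate 3 or wild type replicate 3 brought the calls to 2. mlh3-1, named for a DNA mismatch repair factor, was at 1.70, 2.41 and 1.69 CPM in ∆ve-1 and 24.5, 17.8 and 14.6 CPM in the wild type, 9.82 times higher in the wild type (log2 change -3.29, SE 0.408, edgeR adjusted p = 3.46e-09). spo11, the enzyme that makes meiotic DNA breaks, was at 3.40, 4.69 and 4.74 CPM in ∆ve-1 and 8.48, 8.83 and 7.64 CPM in the wild type, short of the fold required (log2 change -0.96, SE 0.278, edgeR adjusted p = 0.00484). In meiotic silencing, which silences unpaired DNA during meiosis, 1 of 7 rose and 1 fell, beside 9.55% and 5.92% of all genes. sad-3 rose (39.0, 45.3 and 42.5 CPM in ∆ve-1 against 11.2, 13.8 and 9.29 CPM in the wild type, log2 change 1.89). sad-2 fell (5.65, 7.16 and 7.92 CPM in ∆ve-1 against 18.9, 19.9 and 21.0 CPM in the wild type, log2 change -1.53). The summed markers of ascogenous and meiotic cells overlapped, at 193 to 291 CPM in ∆ve-1 and 260 to 301 CPM in the wild type. No histone gene among 9 was called, beside 15.5% of all genes called either way.

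Genes of starch breakdown held the most extreme losses together with an opposite gain. NCU08746, a protein with a starch binding domain, had 4.98, 6.25 and 5.13 CPM in ∆ve-1 and 1891, 1317 and 963 CPM in the wild type, the lowest log2 change among the named genes (log2 change -7.99, SE 0.913, edgeR adjusted p = 3.77e-10). gh13-2 (NCU09805), an alpha-amylase that cuts starch internally, had 4.55, 4.30 and 3.90 CPM against 1130.4, 747 and 551 CPM (log2 change -7.57, SE 0.869, edgeR adjusted p = 4.11e-10). gla-1, the glucoamylase that frees glucose from chain ends, had 220.1, 184 and 225 CPM against 4553, 3015 and 2301 CPM (log2 change -3.97, SE 0.463, edgeR adjusted p = 5.99e-10). These 3 genes were lower in every ∆ve-1 library than in any wild-type library. NCU08746 and gh13-2 were named among the lowest log2 changes of called genes without overlap, so for them this follows from that choice. Another alpha-amylase, gh13-1 (NCU08131), went the other way, with 2560.0, 3256 and 4645 CPM in ∆ve-1 and 478, 550.1 and 519.9 CPM in the wild type (log2 change 2.76, SE 0.327, edgeR adjusted p = 9.49e-10). Of 8 starch enzymes found by their RefSeq symbol, 1 rose, 2 fell and 5 were not called, beside 9.55% of all genes called higher and 5.92% lower.

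Other genes with the greatest losses included a neighbouring pair on chromosome VI that was close to silent in ∆ve-1. NCU09968 (VI:309546-315476) had 0.0607, 0.456 and 0.714 CPM in ∆ve-1 and 111, 82.2 and 93.4 CPM in the wild type (log2 change -7.86, SE 0.726, edgeR adjusted p = 4.94e-12), and sly-1 (VI:314113-320071), annotated as a transposase, had 0, 0.325 and 0.325 CPM in ∆ve-1 and 40.6, 33.0 and 37.6 CPM in the wild type (log2 change -7.40, SE 0.524, edgeR adjusted p = 8.49e-15). The annotated spans of the pair overlap. On dark days 0, 1, 2 and 6 the ∆ve-1 means of NCU09968 and sly-1 were at most 1.12 CPM, and sly-1 had no count in ∆ve-1 on dark day 6 or light day 4, at least 586-fold and 672-fold below the wild type, with the bound set at 3 counts over a group. apr-10, an aspartic protease of the endothiapepsin kind, had 7.53, 9.70 and 17.3 CPM against 240.1, 234 and 233 CPM (log2 change -4.36, SE 0.448, edgeR adjusted p = 1.60e-11). The rest of the 12 lowest were hypothetical or unnamed: NCU09055 (-5.61), NCU08442 (-5.60), NCU00704 (-5.31), NCU07088 (-4.65), NCU02199 (-4.50) and NCU05811 (-4.25) on the log2 scale.

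Most of the greatest gains were in genes annotated without a known product. NCU04471 rose from 2.12, 13.1 and 6.11 CPM in the wild type to 816, 1005 and 843 CPM in ∆ve-1 (log2 change 6.96, SE 1.14, edgeR adjusted p = 2.04e-06). The exception with an annotation was hsp20 (NCU09420), a small heat shock protein, at 144, 286 and 239.8 CPM against 0.899, 3.72 and 3.25 CPM (log2 change 6.41, SE 0.874, edgeR adjusted p = 3.74e-08). All 12 were chosen among genes without overlap. NCU17244 (6.57) and NCU02329 (6.31) are neighbours on chromosome VII, and NCU08727 (5.53) is the neighbour of fl on chromosome II. The others were NCU14111 (6.52), NCU00757 (6.06), NCU07345 (5.89), NCU04586 (5.86), NCU06255 (5.57), NCU07983 (5.56) and NCU04030 (5.48) on the log2 scale.

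None of 7 chitin and glucan synthases was called, with a median log2 change of -0.63, and 2 of 9 chitinases rose and 2 fell, beside 9.55% and 5.92% of all genes. gh18-1 had 3.40, 4.04 and 8.18 CPM in ∆ve-1 and 109.9, 44.4 and 44.5 CPM in the wild type (log2 change -3.67, SE 0.460, edgeR adjusted p = 5.64e-09), and gh18-8 had 9.84, 17.0 and 17.3 CPM in ∆ve-1 and 79.0, 64.5 and 58.4 CPM in the wild type (log2 change -2.19, SE 0.339, edgeR adjusted p = 6.05e-07). gh18-11 (3.71) and gh18-7 (1.18) rose on the log2 scale, the former from a low level, 0.706, 0.252 and 0.133 CPM in the wild type and 9.59, 1.95 and 3.05 CPM in ∆ve-1. Of 17 structural cell wall proteins 5 rose and 2 fell, beside 9.55% and 5.92% of all genes. Among them were acw-5 (2.03), acw-3 (1.73), acw-6 (-1.07) and ncw-2 (-1.07). The call of ncw-2 was lost when any of the 6 libraries was left out, with edgeR adjusted p from 0.0555 without ∆ve-1 replicate 3 to 0.125 without ∆ve-1 replicate 1, and acw-6 stood at -0.95 without ∆ve-1 replicate 1. Over 77 glycoside hydrolases found by their RefSeq symbol, 6 rose and 13 fell, beside 9.55% and 5.92% of all genes. Their median log2 change was -0.12, and gh47-2, an alpha-mannosidase, was one that rose (3.07). With the symbols of the deposited table added, a choice made after the data were seen, 16 of 143 rose and 30 fell, with a median of -0.22.

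Of 12 redox genes, 2 rose, beside 9.55% of all genes called higher. The catalase gene cat-1 was at 494, 507 and 593 CPM against 217, 227 and 226 CPM (log2 change 1.25, SE 0.247, edgeR adjusted p = 5.06e-05). The laccase gene lacc-7 (log2 change 1.14) was not called without ∆ve-1 replicate 3 (edgeR adjusted p = 0.0863) or wild type replicate 1 (0.0532), leaving 1 call in the list. Among 4 polyketide synthases other than per-1, 1 rose, 1 fell and 2 were not called, beside 9.55% of all genes called higher and 5.92% lower. pks-3 had 37.2, 33.9 and 44.9 CPM in ∆ve-1 and 6.23, 6.68 and 4.98 CPM in the wild type (log2 change 2.69, SE 0.433, edgeR adjusted p = 1.36e-06). The member that fell was pks-6, whose values are given below with the runs of neighbours. None of 29 subunit genes of mitochondrial complex I was called, beside 15.5% of all genes, with a median log2 change of -0.38. None had a log2 change above 0, and 12 were lower by the adjusted p alone, beside 1721 of all 9701 genes.

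Called genes lay in 15 runs of at least 4 neighbours that moved one way, 8 of them higher and 7 lower, with 73 genes in all. Without ∆ve-1 replicate 1 the same rule, applied to those calls after the data were seen, found 10 runs with 44 genes, and no run held 4 or more genes of the longest one. The same was true of the longest run without wild type replicate 2. Without wild type replicate 3 a run held 4 of its 8 genes, and without ∆ve-1 replicate 3 a run held 5. Alternatives other than leaving out ∆ve-1 replicate 1 gave 11 to 21 runs with 50 to 99 genes. Of the 15 runs, 7 were found whole without ∆ve-1 replicate 1 or 3, 8 without wild type replicate 2 or 3 and 12 with DESeq2. The mating-type locus on chromosome I formed one of them: apn-2, a DNA lyase gene (2.45), mat A-3, mat A-2, mat A-1, NCU14009 (2.33) and eat-2A (3.73), all higher (I:1853043-1867210). This run was whole whichever library was left out. eat-2A went from 1.80, 3.28 and 2.12 CPM in the wild type to 25.3, 26.2 and 44.9 CPM in ∆ve-1. The longest run, 8 genes on I:8677529-8699834, was lower and held the polyketide synthase gene pks-6.

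In that run, fbm-1, named for fruiting body maturation, had 21.4, 59.6 and 72.0 CPM in ∆ve-1 and 121, 434 and 722 CPM in the wild type (log2 change -3.06, SE 0.683, edgeR adjusted p = 0.000295), and mkr-6, a cupin domain protein, had 11.7, 50.3 and 39.7 CPM in ∆ve-1 and 88.7, 409 and 329 CPM in the wild type (log2 change -3.02, SE 0.674, edgeR adjusted p = 0.000303). pks-6 itself had 6.44, 37.0 and 35.1 CPM in ∆ve-1 and 35.2, 104 and 115 CPM in the wild type (log2 change -1.70, SE 0.573, edgeR adjusted p = 0.0158). Replicate 1 was the lowest library of both strains in these 3 genes, and the strains overlapped in pks-6, eph-1 and mkr-2. Between them lay eph-1 (-1.89), mkr-2 (-1.50), gpl-5 (-1.58), srdD (-2.82) and srdC (-2.07). Calls of 4 genes were lost when single libraries were left out: without ∆ve-1 replicate 1, the edgeR adjusted p was 0.123 for pks-6, 0.146 for eph-1, 0.135 for mkr-2 and 0.0938 for gpl-5. The same genes were lost without wild type replicate 2 (0.0564, 0.110, 0.134 and 0.0733), and pks-6 (0.0748), eph-1 (0.0770) and mkr-2 (0.0796) without wild type replicate 3. eph-1 was also lost without ∆ve-1 replicate 2 (0.0552) and mkr-2 without ∆ve-1 replicate 3 (0.0739). With DESeq2 on the 6 libraries the adjusted p of pks-6 was 0.0921.

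Other lower runs held genes annotated as metabolic enzymes. On I:2077848-2086399, gcy-2, annotated as a galacturonic acid reductase (-1.30), the sorbitol dehydrogenase gene sodh-1 (-1.93) and pgi-1 (-1.85) lay beside pig-2 and NCU16347, whose spans overlap. On VI:339390-357848 the aldehyde dehydrogenase gene ahd-4 had 21.9, 39.0 and 30.7 CPM in ∆ve-1 and 224, 223 and 189.7 CPM in the wild type (log2 change -2.80, SE 0.394, edgeR adjusted p = 1.07e-07), between the sugar transporter gene sut-19 (-2.78), cyp450-28 (-3.19), NCU07055 (-1.58) and NCU07050 (-3.10). On IV:772271-782983, NCU04928 fell from 211, 258 and 207 CPM to 12.7, 17.1 and 24.9 CPM (log2 change -3.63, SE 0.378, edgeR adjusted p = 2.53e-11) together with NCU14089 (-2.90), cea-6 (-1.93) and NCU04931 (-3.11). NCU16745 was also in this run. Its call was lost when any ∆ve-1 library, wild type replicate 1 or wild type replicate 2 was left out (edgeR adjusted p 0.0681 to 0.144).

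Higher runs included one on VII:4155062-4167943 with the monooxygenase gene mox-5, at 35.8, 36.3 and 43.8 CPM in ∆ve-1 and 5.52, 5.68 and 4.58 CPM in the wild type (log2 change 2.87, SE 0.486, edgeR adjusted p = 3.61e-06). The calls of its neighbours mox-9 and mfs-15 were lost without ∆ve-1 replicate 1, wild type replicate 1 or wild type replicate 3 (edgeR adjusted p 0.0595 to 0.203). mox-9 was also lost without wild type replicate 2 (0.0603). On II:4034930-4046143, gpr-31, named as a G protein-coupled receptor gene, was at 463, 383 and 568 CPM against 24.5, 19.8 and 13.3 CPM (log2 change 4.62, SE 0.688, edgeR adjusted p = 2.79e-07), with gpr-32 (2.51) close by. On VII:2910049-2934977, man-2, a mannose-6-phosphate isomerase gene, was at 63.9, 63.5 and 58.2 CPM against 2.76, 4.41 and 3.25 CPM (log2 change 4.15, SE 0.485, edgeR adjusted p = 6.61e-10). A run on V:858215-865559 held gh6-2, a cellulose-degrading exoglucanase gene (1.57), and the transporter gene NCU09678, whose 70.3, 18.03 and 17.7 CPM in ∆ve-1 rested on replicate 1. Without that library NCU09678 was not called (log2 change 1.49, edgeR adjusted p = 0.148).

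**Figure D3:**
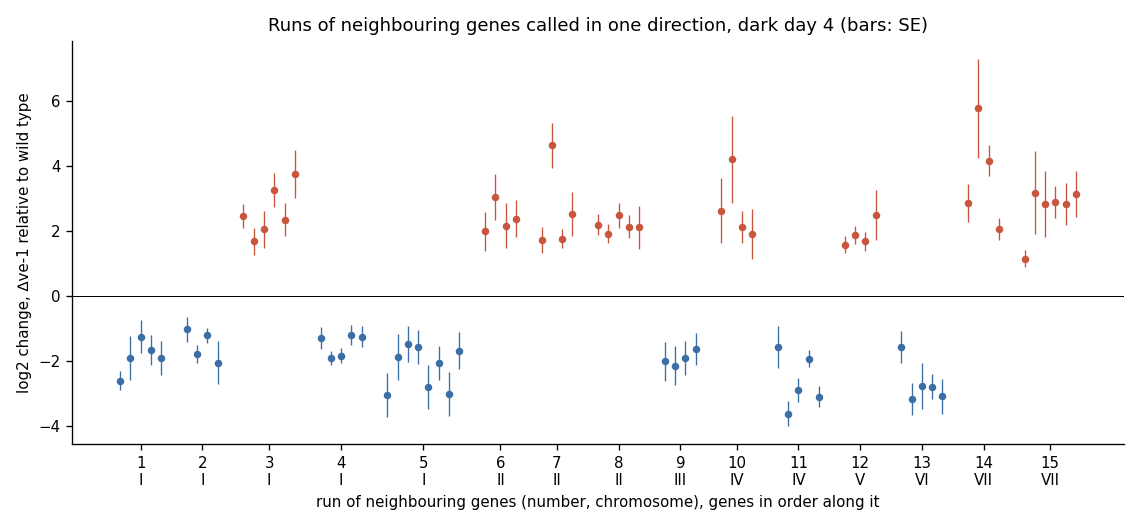
Log2 change of ∆ve-1 relative to wild type on dark day 4 (points, with SE bars) of the 73 genes in 15 runs of neighbouring called genes, in their order along the chromosome (numerals under the run numbers). Run 3 is the mating-type locus, with all 6 genes higher, and run 5 the 8 lower genes that include pks-6.

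The day 4 libraries were then placed along the dark time course of the wild type by their root mean square distance in log2 CPM over the tested genes. Wild-type day 4 libraries lay 0.372 ± 0.0443 (SD, n = 3) from the mean of the other wild-type libraries of their day, 0.808 ± 0.0634 from day 2 and 1.12 ± 0.0178 from day 6. The ∆ve-1 libraries lay 0.997 ± 0.0285 (SD, n = 3) from wild-type day 4, 1.02 ± 0.00987 from day 2 and 1.32 ± 0.0435 from day 6. They were thus about as far from day 2 as from day 4, although each library was slightly nearer day 4. Replicates 1, 2 and 3 lay 1.010, 0.964 and 1.017 from day 4 and 1.016, 1.012 and 1.031 from day 2. The day 2 mean includes wild type replicate 3, which stood apart in genes named below, and the distances were not redone without it. Over the 1000 most variable genes the distances were 2.18 ± 0.0261 from day 2 and 2.18 ± 0.0879 from day 4, with replicate 1 nearer day 2 and the others nearer day 4.

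**Figure D4:**
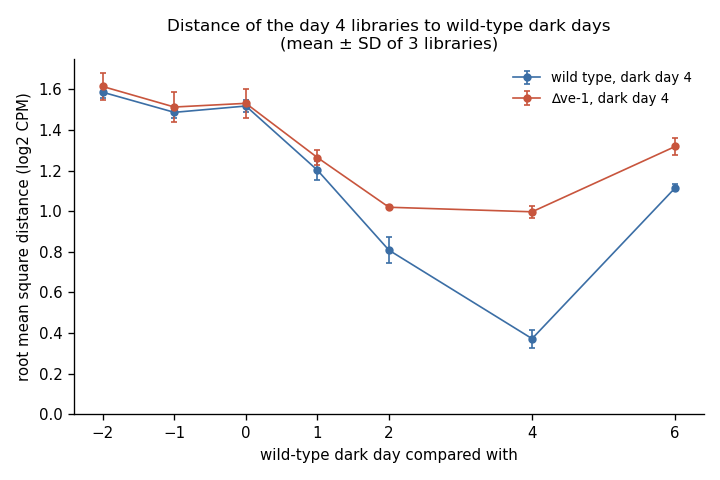
Root mean square distance in log2 CPM (vertical axis, mean ± SD of 3 libraries) of the dark day 4 libraries of each strain from the mean of each wild-type dark day (horizontal axis). The wild type (blue) has its minimum of 0.372 at day 4, whereas ∆ve-1 (red) is at 1.02 for day 2 and 0.997 for day 4.

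From dark day 2 to day 4, 827 genes changed in the wild type (8.52% of those tested), 447 upward (4.61%) and 380 downward (3.92%), and 243 in ∆ve-1 (2.5%), 220 upward (2.27%) and 23 downward (0.237%). The difference between these steps was tested as an interaction and called in 292 genes (3.01%). The log2 change of ∆ve-1 relative to wild type was higher on day 4 in 152 (1.57%), as a greater gain or a smaller loss, and lower in 140 (1.44%). Without wild type dark day 4 replicate 1, 173 were called. In NCU02087 the wild type went from 3.02 ± 1.19 to 519.7 ± 252 CPM (SD, n = 3), whereas ∆ve-1 went from 13.05 ± 3.53 to 56.6 ± 18.7 CPM (difference of log2 changes -5.31, SE 0.448, edgeR adjusted p = 2.23e-13). In the chitinase gene gh18-1 the wild-type values were 0.992 ± 0.759 and 66.2 ± 37.8 CPM and those of ∆ve-1 1.13 ± 0.354 and 5.21 ± 2.60 CPM (difference of log2 changes -3.88, SE 0.767, edgeR adjusted p = 0.000831). mlh3-1 rose from 3.53 ± 1.52 to 19.0 ± 5.07 CPM and stood at 1.60 ± 0.289 and 1.93 ± 0.412 CPM in ∆ve-1 (difference of log2 changes -2.16, SE 0.569, edgeR adjusted p = 0.0159). In gh18-1 and NCU02087, the wild type exceeded ∆ve-1 in every library on day 4 but not on day 2.

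Some genes rose in ∆ve-1 as in the wild type. NCU00031, an abundant hypothetical gene, went from 20.6 ± 12.1 to 2806 ± 464 CPM in ∆ve-1 (log2 step 7.09, edgeR adjusted p = 4.43e-08), as the wild type did from 109 ± 77.2 to 15319 ± 5359 CPM (log2 step 7.14). The steps of NCU08818 and pks-6 in ∆ve-1 were 6.92 and 4.90 on the log2 scale. NCU10861 had the highest wild-type step, 7.56, with mean levels of 0.812 ± 0.294 CPM on day 2 and 154 ± 94.2 CPM on day 4. Among the few falling in ∆ve-1 were NCU06514 (-2.65), NCU02132 (-1.86) and NCU09428 (-1.60), with wild-type steps of -3.73, -2.53 and -2.75.

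**Figure D5:**
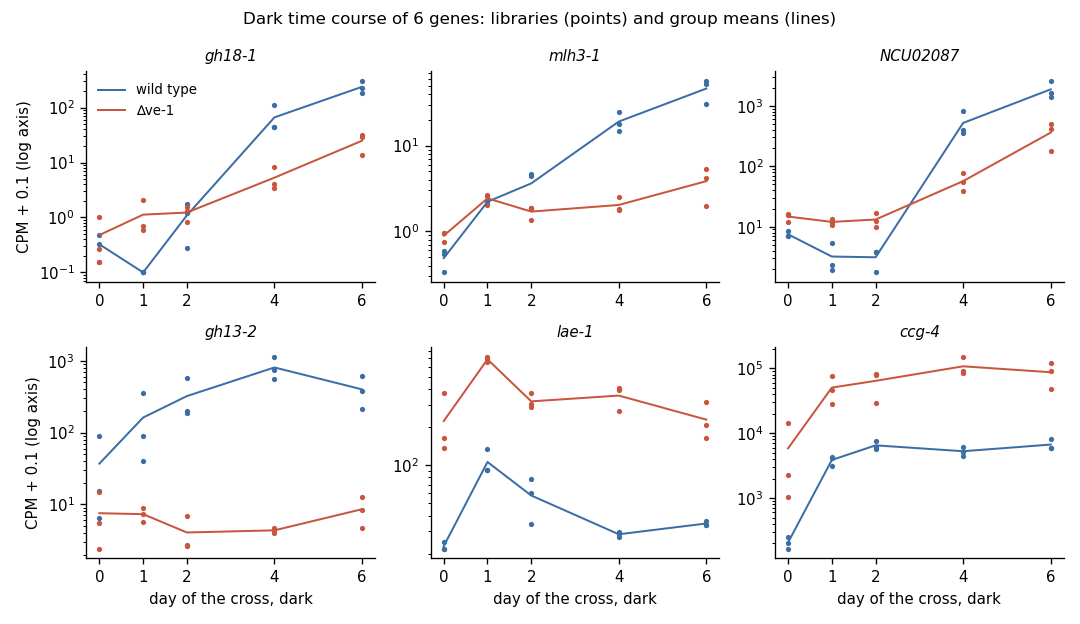
CPM + 0.1 (log axis) of 6 genes over the dark days 0 to 6 of the cross, with libraries as points and group means as lines, wild type in blue and ∆ve-1 in red. gh18-1, mlh3-1 and NCU02087 lie farther apart on day 4 than on day 2 (NCU02087 to 519.7 ± 252 and 56.6 ± 18.7 CPM on day 4), whereas the libraries of gh13-2, lae-1 and ccg-4 do not overlap between the strains on any day from day 1 on.

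A list of genes induced after fertilization was drawn from wild-type light libraries alone, day 4 against day 0 with a log2 change above 2, and held 1380 genes. That light step was called in 32.1% of all genes, upward in 22.4% and downward in 9.76%. On dark day 4, 318 of them (23.0%) were lower in ∆ve-1 and 126 (9.13%) higher, beside 5.92% and 9.55% of all genes, and their median log2 change was -0.44 beside -0.03. On light day 4 their median was -3.38, a comparison that shares the wild-type light libraries with the choice of the list and is given only for scale.

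The strain difference of dark day 4 was compared with that of the same day in light, which was called in 3203 genes (33%), 1202 higher (12.4%) and 2001 lower (20.6%). The difference between light and dark was itself called in 1449 genes (14.9%), 1328 (13.7%) with the higher log2 change in the dark and 121 (1.25%) with the lower. A higher log2 change can be a greater gain or a smaller loss. Pigment genes showed the difference between light and dark. For pig-1 the ∆ve-1 means (± SD, n = 3) were 101 ± 23.7 (dark) and 0.717 ± 0.339 (light) CPM, against 381 ± 12.3 and 323 ± 40.02 CPM for the wild type (difference of log2 changes 6.91, SE 0.711, edgeR adjusted p = 1.02e-11). For per-1 they were 1840.3 ± 564 and 161 ± 48.4 CPM, beside wild-type means of 5707 ± 407 and 6963 ± 380.2 CPM (difference of log2 changes 3.80, SE 0.958, edgeR adjusted p = 0.00201). For lae-1 the ∆ve-1 means were 355 ± 74.2 and 45.2 ± 19.6 CPM, beside 28.3 ± 1.25 and 28.1 ± 2.50 CPM (difference of log2 changes 2.96, SE 0.562, edgeR adjusted p = 4.11e-05). For these genes, the pigment losses were smaller in the dark. The gain of lae-1 was called in the dark but not in light (light log2 change 0.689, edgeR adjusted p = 0.122). The interaction of ccg-4 did not pass (difference of log2 changes 3.26, SE 1.40, edgeR adjusted p = 0.0850).

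On the neighbouring dark days the strain difference was called in 2128 genes on day 2 (21.9%, with 11.7% higher and 10.2% lower) and in 1736 on day 6 (17.9%, with 6.99% higher and 10.9% lower). Against day 6, the day 4 difference was called as changed in 508 genes (5.24%), 463 with the higher log2 change on day 4 (4.77%), a greater gain or a smaller loss, and 45 with the lower (0.464%). The cryptochrome gene cry was among them (difference of log2 changes 2.78, SE 0.655, edgeR adjusted p = 0.00247), with 105 ± 16.1 and 125 ± 31.6 CPM in ∆ve-1 and 16.0 ± 3.92 and 131 ± 51.4 CPM in the wild type on days 4 and 6. trm-14, annotated as a cation transporter, had 3.54 ± 1.24 and 33.3 ± 19.1 CPM in ∆ve-1, beside wild-type means of 44.2 ± 12.7 and 64.2 ± 16.1 CPM (difference of log2 changes -2.70, SE 0.644, edgeR adjusted p = 0.00291). pls-1, lower in ∆ve-1 on day 4, stood at 133 ± 13.9 CPM in ∆ve-1 and 116 ± 25.2 CPM in the wild type on day 6 (difference of log2 changes -1.27, SE 0.282, edgeR adjusted p = 0.00119).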

How the data were processed

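The authors trimmed the reads with fastp, aligned them with STAR (version 2.7 in the submitters' processing notes) to the NC12 assembly and counted them per gene by strand with featureCounts, and they deposited raw counts per gene for 84 libraries. From these counts edgeR 4.0.16 (R 4.3.3) fitted quasi-likelihood models with TMM scaling over 28 groups of 3 libraries, after filterByExpr had left 9701 of 10590 genes, and p-values were Benjamini-Hochberg adjusted over those genes. Symbols and coordinates came from RefSeq (NC12), products from the annotation columns of the deposited table.

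The members and lists were chosen with earlier results of these data known. The 17 lists name genes by function, and 4 families by RefSeq symbol prefix (glycoside hydrolases, starch enzymes, cell wall proteins, complex I) were added after the data were seen in place of 8 lists by product, which were not run. Of the listed genes, 2 were left out because no annotation gave their symbol. Single genes were named by rule: ve-1, called list members and others that a sentence turns on, the 12 highest and 12 lowest log2 changes among called genes without overlap and with a mean of at least 10 CPM in the higher group, 3 each way for every interaction and time step, and the genes of neighbour runs.

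The study fitted its time series with maSigPro on TMM-scaled counts and set pairs of conditions against each other with DESeq2. Here DESeq2 1.42.0, other scalings and filters, and leaving out each library were alternatives. Same-numbered libraries of the strains deviated together (correlations across genes 0.208, 0.181 and 0.265, against -0.194 to -0.018 for other pairs), a hint from the data that the numbers pair them. Deviations were taken from each group's own mean, so negative values elsewhere follow from the positive ones and are not a separate contrast. The pairs of replicates differed by 20.2 to 81.6 times the sampling variance of their counts, so none was a repeat sequencing of the same library. These values cannot tell whether libraries were made separately from the same RNA pool.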

Additional observations from a re-analysis of the deposited data

Results flagged for a closer look

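The strain difference itself differed from dark day 2 in 292 genes, from dark day 6 in 508 and from light day 4 in 1449, each by the interaction test in edgeR. All values below are the log2 change of dark day 4 minus that of the other condition. A positive value means a higher log2 change on dark day 4, which can be a greater gain or a smaller loss in ∆ve-1.

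Against dark day 2, the lowest values were -5.31 for NCU02087, -4.90 for NCU02939 and -4.73 for NCU05030, with -3.88 for the chitinase gene gh18-1 and -2.16 for mlh3-1. The highest were 8.35 for NCU09865, 6.89 for NCU04276 and 5.64 for NCU05338. These 3 rest on the wild type of day 2, where NCU04276 had 4160.4, 5816 and 30.1 CPM, NCU05338 2052, 2460.1 and 43.0 CPM and NCU09865 359.9, 829 and 4.55 CPM, with replicate 3 far below the others. The fusion genes ham-6 (1.18) and ham-12 (1.12) had smaller losses on day 4 than on day 2.

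Against dark day 6, the lowest values were -2.80 for NCU16320, -2.70 for trm-14 and -2.62 for NCU09029, and the highest 8.83 for NCU08833, 8.27 for NCU02323 and 7.59 for NCU09645. The last 3 had no count in the wild type on dark day 4 and 16, 19 and 7 counts over the ∆ve-1 libraries, at least 5.51-fold, 6.54-fold and 2.41-fold higher than the wild type with its level set at 3 counts over the group. ∆ve-1 dark day 6 replicate 3 was the lowest of its group in all 6 genes. Without ∆ve-1 dark day 4 replicate 3, NCU09645 was not called (3.22, edgeR adjusted p = 0.999996). List members were cry (2.78), pls-1 (-1.27), ham-11 (-1.11) and ham-12 (-1.02).

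Against light day 4, the lowest values were -4.77 for the metalloprotease gene mpr-9, -3.20 for gh18-2 and -2.95 for NCU09213. The call of mpr-9 was lost when any library of dark day 4 but ∆ve-1 replicate 3 was left out (edgeR adjusted p 0.0625 without wild type replicate 3 to 0.0959 without wild type replicate 2). The call of gh18-2 was lost without ∆ve-1 replicate 2 (edgeR adjusted p = 0.120), ∆ve-1 replicate 3 (0.118), wild type replicate 1 (0.191) or wild type replicate 3 (0.0542), and under other scalings (0.0503 and 0.0522). The highest were 14.30 for NCU09926, 13.23 for NCU05710 and 11.998 for NCU04026, all near or at 0 in ∆ve-1 in light, where NCU09926 was at least 1659-fold and NCU04026 at least 635-fold below the wild type. Among pigment genes the values were 6.91 for pig-1, 3.80 for per-1, 3.44 for ty-2 and 2.701 for pig-2. Fusion genes followed with ham-8 (2.59), ham-6 (2.49), ham-12 (2.32), ham-7 (1.45) and ham-11 (1.45). Others were sad-2 (8.54), gh18-8 (4.19), gh18-1 (3.36), mlh3-1 (1.55), cgl-1 (2.32), ecd-1 (1.16), pls-1 (1.204), fl (3.16), lae-1 (2.96) and cao-2 (-1.08).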

How the results depend on the processing

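The 1500 calls became 3533 (1812 higher, 1721 lower) by the adjusted p alone and 537 (393 and 144) above a log2 change of 2. Other scalings, filters, the 6 libraries alone or DESeq2 gave 1488 to 1574. With the replicate block 1517 genes were called, 1492 of them in both fits, and no call of a named gene changed. By the adjusted p alone, 444 genes differed from day 2 and 777 from day 6. Leaving out single libraries gave 173 to 387 calls against day 2. Chosen after seeing the data, leaving out wild type dark day 2 replicate 3 gave those 387 (and 964 wild-type steps against 827), and leaving out ∆ve-1 dark day 6 replicate 3 gave 416 against day 6. Of 154 named called genes, 30 lost the call when a library was left out, and 0 reversed.

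With library totals alone the list medians were -0.19 for MAP kinases (0 called), -0.41 for fusion, -0.50 for female development, -0.061 for glycoside hydrolases, -0.31 for starch enzymes and 0.0056 for redox, whose sign reversed, while the median of all genes moved from -0.03 to 0.04; the cause was not tested. Leaving out single libraries moved medians to -2.04 to -1.83 for velvet, -0.30 to -0.21 for MAP kinases, -0.51 to -0.45 for fusion, -0.57 to -0.47 for female development, -0.70 to -0.50 for chitin and glucan synthases, -0.22 to 0.061 for chitinases, 0.19 to 1.09 for polyketide synthases, 0.0015 to 0.17 for nitrogen, -0.14 to 0.0029 for G proteins and -0.25 to -0.11 for glycoside hydrolases. Called members then numbered 0 to 1 (MAP kinases), 2 to 4 (female development), 1 to 2 (meiosis), 3 to 5 (light), 1 to 3 (redox) and 1 to 2 (polyketide synthases). Over the 1000 most variable genes the distances of ∆ve-1 were 2.18, 2.18 and 3.12 from wild-type days 2, 4 and 6.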
